A study of Mus musculus with 6 samples.

Results

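The transcripts described are those of 9 CXC chemokines, namely Cxcl1, Cxcl2, Cxcl3, Cxcl5, Cxcl9, Cxcl10, Cxcl12, Cxcl14 and Cxcl16, in cultured mouse macrophages with and without resolvin D1 (RvD1). They were taken by gene symbol from the single deposited table, in which each of the 9 names stood for 1 of 38087 genes. Poly-A RNA was sequenced from 6 libraries of bone marrow-derived macrophages, whose donors were C57BL/6J males. All the cells were differentiated for 7 days in macrophage colony-stimulating factor (10 ng/ml) and then kept without it for 24 h. One group of 3 libraries was then given 10 nM RvD1 for 6 h and the other 3 were left untreated, with no vehicle described. The protocol gives the mice as 8 to 10 weeks old, while a sample tag gives 2 to 4 months.

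Chemokines are small secreted proteins that direct the movement of leukocytes through receptors on the cell surface. In the CXC family the first conserved pair of cysteines is separated by 1 other residue. Cxcl1, Cxcl2, Cxcl3 and Cxcl5 attract neutrophils through Cxcr2, and macrophages make several of them in response to NF-kB signalling. Cxcl9 and Cxcl10 are induced by interferons and attract T cells through Cxcr3. Cxcl12 holds leukocytes and progenitors in the marrow through Cxcr4, Cxcl14 is made constitutively in many tissues, and Cxcl16 is a membrane-bound ligand of Cxcr6 that can be shed. RvD1 is a docosahexaenoic acid derivative that limits inflammation and is sensed by the receptor ALX/FPR2.

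Among the members, 6 lie on mouse chromosome 5 in the mm10 annotation (GENCODE M21), all protein-coding. Cxcl5 (90759360 to 90761624), Cxcl3 (90786103 to 90789600), Cxcl1 (90891241 to 90893115) and Cxcl2 (90903871 to 90905938) form 1 cluster on the plus strand. Cxcl9 (92321347 to 92328079) and Cxcl10 (92346638 to 92348889) neighbour each other on the minus strand. Cxcl12 lies on chromosome 6 (117168535 to 117181367, plus strand), Cxcl16 on chromosome 11 (70453983 to 70459984, minus strand) and Cxcl14 on chromosome 13 (56288643 to 56296551, minus strand).

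Promoters of 7 of the 9 members were found among RefSeq windows of build GRCm38.p6 that run from 250 bases before to 50 bases after the transcript start; Cxcl5 and Cxcl16 were not matched. The stretches below are shown for the 3 clustered neutrophil attractants and for Cxcl10, the members whose window matched the NF-kB type motif searched for. Capitals mark matches to GGAATTTCC, the inner bases of that motif, and for Cxcl10 also to GAAANNGAA, taken from the interferon-stimulated response element. Both were searched on both strands. Other forms of the NF-kB type motif were not searched, so lower case or the lack of a match does not mean that none is there. The match in Cxcl10 is on the opposite strand and is read there as its reverse complement.
Cxcl1, chr5:90891125-90891214, plus strand, bases -120 to -31: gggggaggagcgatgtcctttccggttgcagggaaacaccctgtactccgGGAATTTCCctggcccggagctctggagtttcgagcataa
Cxcl2, chr5:90903779-90903868, plus strand, bases -120 to -31: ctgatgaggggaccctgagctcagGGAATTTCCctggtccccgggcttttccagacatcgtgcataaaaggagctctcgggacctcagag
Cxcl3, chr5:90785981-90786070, plus strand, bases -120 to -31: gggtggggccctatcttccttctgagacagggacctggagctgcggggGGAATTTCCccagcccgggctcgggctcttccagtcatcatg
Cxcl10, chr5:92348980-92349109, minus strand, bases -220 to -91: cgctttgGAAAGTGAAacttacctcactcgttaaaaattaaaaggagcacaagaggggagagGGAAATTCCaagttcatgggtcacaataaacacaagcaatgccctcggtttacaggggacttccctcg

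The longest run before the transcript start shared by the windows of Cxcl1, Cxcl2 and Cxcl3 was GGGAATTTCCC, which 14 of 32851 promoter windows held (0.0426%). Its inner bases, GGAATTTCC, were found in 104 windows (0.317%). In Cxcl1, Cxcl2 and Cxcl3 they began at base -70, -96 and -72, and in Cxcl10 they covered bases -158 to -150. GAAANNGAA was found in 2812 windows (8.56%), among them those of Cxcl10 (bases -213 to -205), Cxcl9 (-175 to -167) and Cxcl14 (-172 to -164). The Cxcl12 window held neither of these sequences. A match describes the sequence and says nothing of whether the site is used in these cells.

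Estimated depth was 9.05 to 16.3 M reads per library, from the spacing of low values that stands for 1 read. All 10 macrophage markers were above 0 in every library, with a summed level of 16.67 to 17.03 (log2) in untreated and 16.72 to 17.07 in RvD1 libraries. Markers of other cells were present as well. Summed neutrophil markers (11 of 11 above 0 in every library) ranged from 12.12 to 13.88 in untreated and from 12.47 to 13.85 in RvD1 libraries, and summed stromal markers (9 of 10) from 15.69 to 15.92 and from 15.60 to 16.17. Summed endothelial markers (6 of 6) ranged from 9.62 to 9.89 and from 9.71 to 10.72, while 4 of 8 lymphocyte markers, Cd3e, Cd3g and Ms4a1 among them, were listed at 0 throughout. In such bulk samples, fewer cells of a type and less RNA per cell cannot be told apart.

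None of the 9 members passed the test of RvD1 against untreated (limma, Benjamini-Hochberg adjusted over the 18899 tested genes, threshold 0.05). Over all tested genes 1.12% passed (0.561% higher and 0.556% lower), so 0 of 9 lies near that share. Cxcl1, Cxcl10 and Cxcl3 had the largest positive differences and Cxcl14 the one negative difference. At an unadjusted p under 0.05 in limma, 1 member was higher (Cxcl1; 10.3% of all tested genes were higher) and 1 was lower (Cxcl14; 9.65% were lower), together 2 of 9 against 19.9%. Differences were positive for 8 of the 9 and negative for 1, against 50.8% and 49.2% of all tested genes, with a median of 0.75 on the log2 scale against 0.0044. That median is the value of Cxcl9, which had at most about 6.00 estimated reads in a library. Cxcl12, Cxcl14 and Cxcl16, the members with the highest levels, had differences of 0.27, -0.22 and 0.25. The groups did not overlap for 2 members, Cxcl3 and Cxcl14, against 25.4% of tested genes (12.6% with RvD1 higher and 12.8% with RvD1 lower). Without untreated replicate 3, 6 members had an unadjusted p under 0.05 in limma (Cxcl1, Cxcl2, Cxcl5, Cxcl10 and Cxcl16 higher, Cxcl14 lower), against 16.1% of all tested genes in that fit. With any other library left out it was 1 or 2 members. All 9 members passed the filter on low values, which asked for a value above 0 in at least 3 libraries.

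**Figure D1:**
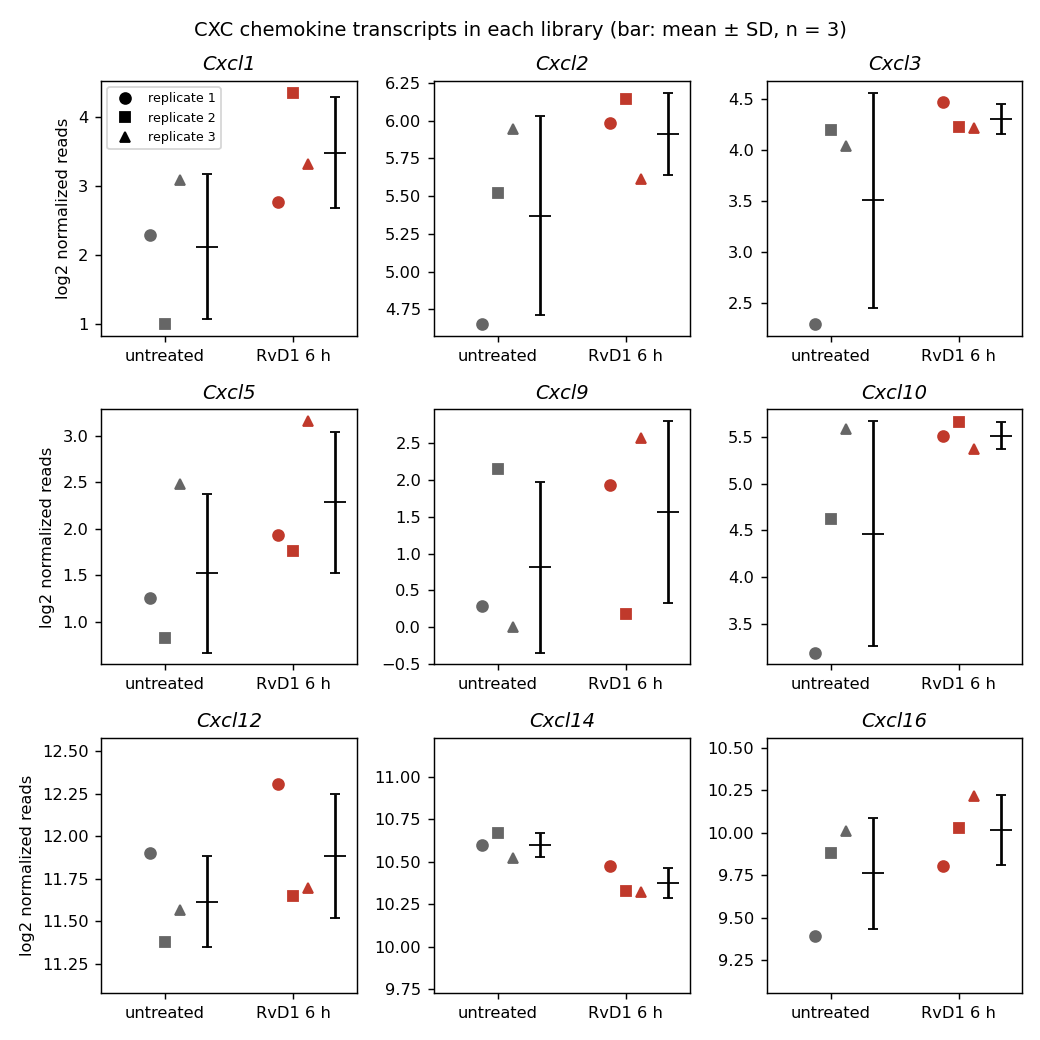
Each panel plots 1 CXC chemokine, with the level in log2 normalized reads on the vertical axis, the 2 groups on the horizontal axis, 1 symbol per library and the mean ± SD of 3 beside them. The vertical axes differ between panels and do not start at 0. Cxcl3 and Cxcl14 are the 2 members whose groups do not overlap.

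Levels were compared between members only after division by the length of the longest transcript in kb. On that log2 scale, over the 6 libraries, the order was Cxcl14 (mean 9.62), Cxcl12 (9.26), Cxcl16 (8.46), Cxcl2 (4.60), Cxcl10 (3.83), Cxcl3 (2.10), Cxcl1 (1.90), Cxcl5 (1.00) and Cxcl9 (-0.34). Cxcl14 and Cxcl12 overlapped in range, Cxcl12 and Cxcl16 did not, and Cxcl16 stood clear of Cxcl2. From Cxcl2 downwards each member overlapped the next. Cxcl14, Cxcl12 and Cxcl16 made up 37.5% to 50.7%, 27.0% to 43.4% and 13.8% to 24.7% of the summed level per kb of the 9 in a library. The other 6 together made up 1.22% to 4.34%. With the length of all exons in place of the longest transcript, Cxcl12 stood at 8.72 and then overlapped Cxcl16 (8.29) and not Cxcl14.

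Among the ligands of Cxcr2, Cxcl1 stood at 2.29, 0.99 and 3.08 (log2 normalized reads) in the untreated libraries and at 2.77, 4.35 and 3.32 in those with RvD1, in the order of replicates 1, 2 and 3 used throughout. Untreated replicate 2 was the lowest and RvD1 replicate 2 the highest, and the groups overlapped because untreated replicate 3 lay above RvD1 replicate 1. These levels stood for about 2.25 to 18.0 reads per library. The difference in log2 level, RvD1 minus untreated, was 1.36 (0.02 to 2.69 as the 95% interval, with 3 libraries in each group; limma adjusted p = 0.244), the largest among the 9. It was 0.79 without untreated replicate 2, 1.84 without untreated replicate 3 and 0.61 when 8 was added to the antilogs.

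Cxcl2 stood at 4.65, 5.52 and 5.94 in untreated and 5.99, 6.14 and 5.61 in RvD1 libraries (log2), worth about 20.6 to 82.9 reads. Untreated replicate 1 was the low library, and untreated replicate 3 lay above RvD1 replicate 3. The difference was 0.54 (-0.16 to 1.25; limma adjusted p = 0.376), with 0.18 without untreated replicate 1 and 0.83 without untreated replicate 3.

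Cxcl3 stood at 2.29, 4.19 and 4.04 in untreated and 4.47, 4.22 and 4.22 in RvD1 libraries (log2), worth 4.00 to 29.0 reads. The groups did not overlap, but the highest untreated library (replicate 2) lay only 0.028 below the lowest RvD1 library (replicate 3), and most of the difference between the means came with untreated replicate 1. The difference was 0.80 (-0.27 to 1.87; limma adjusted p = 0.390), with 0.19 without that library and 1.14 without untreated replicate 2.

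Cxcl5 stood at 1.26, 0.82 and 2.48 in untreated and 1.93, 1.76 and 3.16 in RvD1 libraries (log2). Replicate 3 was the highest of both groups, and the groups overlapped. With only 1.96 to 8.96 estimated reads per library the interval of the difference was wide (0.77, -0.49 to 2.02; limma adjusted p = 0.490). Leaving out 1 library moved it between 0.33 (without RvD1 replicate 3) and 1.24 (without untreated replicate 3).

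The spread of these 4 genes in untreated cells exceeded the median spread of genes at a like level. The untreated SD of Cxcl2 was 0.66, where the median over 1379 tested genes within 0.5 of its mean log2 level was 0.18, and that of Cxcl3 was 1.06 against 0.33. For Cxcl1 it was 1.05 against 0.45 and for Cxcl5 0.86 against 0.62. In RvD1 libraries the SD of Cxcl1 was 0.81 against 0.43, that of Cxcl2 0.27 against 0.19 and that of Cxcl5 0.76 against 0.60. Only Cxcl3, of these 4, had an RvD1 SD below the median at its level, 0.14 against 0.31. A wide untreated spread was not particular to these 4. The untreated SD was 0.27 against 0.06 for Cxcl12, 0.33 against 0.07 for Cxcl16 and 1.17 against 0.76 for Cxcl9. For Cxcl14 it was 0.072 against 0.068.

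Of the interferon-induced ligands of Cxcr3, Cxcl10 stood at 3.19, 4.63 and 5.58 in untreated and 5.51, 5.66 and 5.37 in RvD1 libraries (log2), worth 7.50 to 59.6 reads. The RvD1 libraries lay within 0.29 of each other, while the untreated ones spread over 2.39, and untreated replicate 3 lay above RvD1 replicates 1 and 3. The SD was 1.20 in untreated and 0.15 in RvD1 libraries, where genes at a like level had medians of 0.22 in each group. The difference was 1.04 (-0.10 to 2.19; limma adjusted p = 0.291). It was 0.41 without untreated replicate 1 and 1.60 without untreated replicate 3.

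Cxcl9 was near the floor of the table, at 0.29, 2.15 and 0 in untreated and 1.93, 0.18 and 2.58 in RvD1 libraries (log2). No library held more than about 6.00 reads of it. High and low libraries were found in both groups, and the difference of 0.75 had an interval from -0.98 to 2.49 (limma adjusted p = 0.632). Leaving out 1 library moved the value between 0.25 (without RvD1 replicate 3) and 1.45 (without RvD1 replicate 2). With 8 added to the antilogs, which damps low values, the differences of Cxcl3, Cxcl5 and Cxcl9 were 0.46, 0.24 and 0.18.

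Cxcl12, the ligand of Cxcr4 and of the scavenging receptor Ackr3, stood at 11.90, 11.38 and 11.57 in untreated and 12.31, 11.65 and 11.70 in RvD1 libraries (log2), worth 2149 to 6623 reads. RvD1 replicate 1 was the highest, and untreated replicate 1 lay above the other 2 RvD1 libraries. The difference was 0.27 (-0.15 to 0.69; limma adjusted p = 0.463), with 0.06 without RvD1 replicate 1 and 0.41 without untreated replicate 1. RvD1 replicate 1 also had the highest summed stromal (16.17) and endothelial (10.72) marker levels of the 6. The part of those cells in the level of Cxcl12 was not tested.

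Cxcl14 was the member with the smallest p in limma and the lower one with RvD1. It stood at 10.60, 10.67 and 10.52 in untreated and 10.47, 10.33 and 10.32 in RvD1 libraries (log2), worth 1043 to 1861 reads. Every RvD1 library lay below every untreated one, by 0.050 at the closest pair. The mean was 10.60 ± 0.07 (SD, n = 3) and 10.37 ± 0.09, so the RvD1 level was 0.856 of the untreated one (0.772 to 0.949; limma adjusted p = 0.116). With 1 library left out the difference stayed between -0.27 and -0.19, whereas the correction for transcript length and GC content reduced it from -0.22 to -0.10 (SE 0.06).

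Cxcl16 stood at 9.39, 9.88 and 10.01 in untreated and 9.80, 10.03 and 10.22 in RvD1 libraries (log2), worth 551 to 1197 reads. Replicate 1 was the lowest and replicate 3 the highest of both groups, and the groups overlapped. The difference was 0.25 (-0.11 to 0.62; limma adjusted p = 0.422), with 0.07 without untreated replicate 1 and 0.38 without untreated replicate 3.

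**Figure D2:**
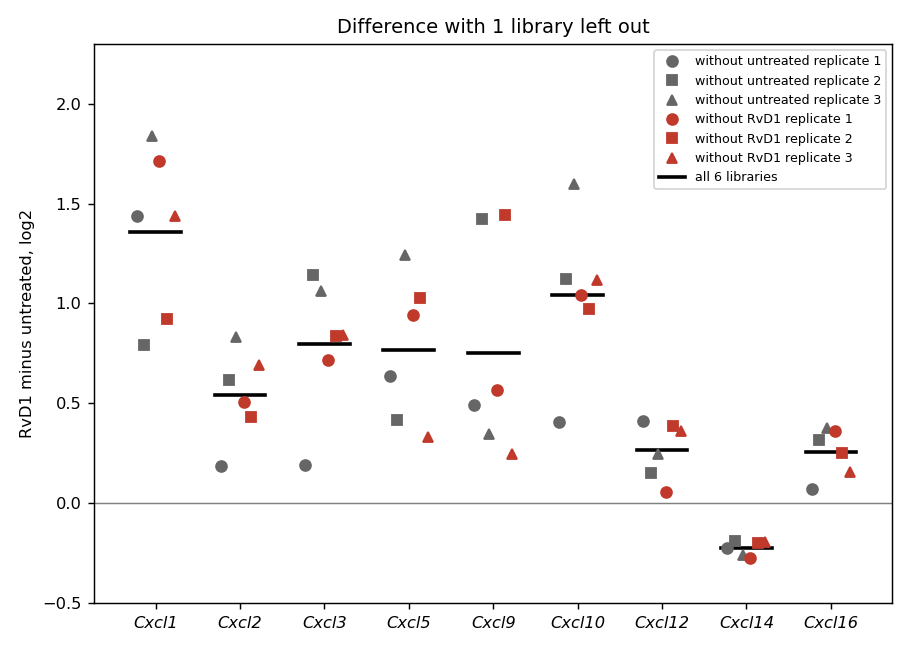
The difference between RvD1 and untreated means (log2, vertical axis) is plotted for each member with all 6 libraries (black line) and with each library left out in turn (symbols). Without untreated replicate 1 the values of Cxcl2, Cxcl3, Cxcl10 and Cxcl16 drop to 0.18, 0.19, 0.41 and 0.07, and without RvD1 replicate 1 that of Cxcl12 drops to 0.06.

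Untreated replicate 1 was the lowest of the 6 libraries for 4 members, Cxcl2, Cxcl3, Cxcl10 and Cxcl16, and 7 of the 9 lay below their own mean there. Its median deviation over the 9 members was -0.64 (log2), against -0.12 and 0.13 for the other untreated libraries and 0.34, 0.14 and 0.33 with RvD1. The same library had the lowest summed neutrophil (12.12) and macrophage (16.67) marker levels. The part of cell makeup in these low values was not tested. For the neutrophil markers the highest untreated and RvD1 libraries were both replicate 3, at 13.88 and 13.85. Cxcl5 and Cxcl16 were also highest in replicate 3 of each group. Cxcl2 and Cxcl10 were highest in replicate 3 among the untreated libraries (5.94 and 5.58) and lowest in replicate 3 among the RvD1 libraries (5.61 and 5.37).

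**Figure D3:**
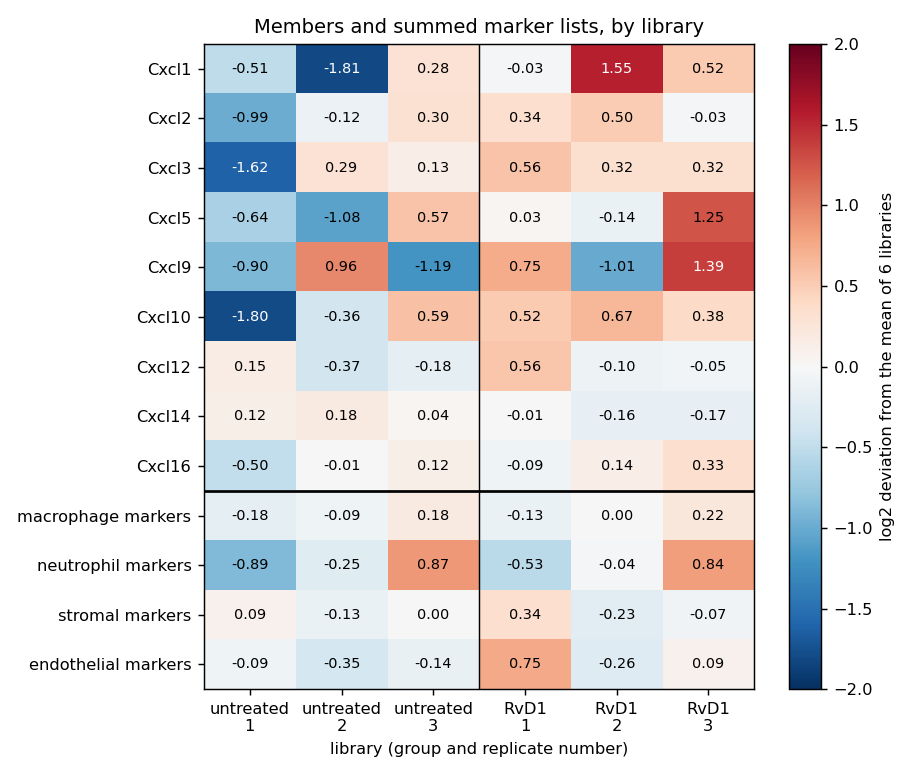
Each cell gives the log2 deviation of a gene, or of a summed marker list below the black line, from its own mean over the 6 libraries, with libraries in columns (untreated left, RvD1 right). Untreated replicate 1 is low for Cxcl3 (-1.62), Cxcl10 (-1.80) and Cxcl2 (-0.99), and Cxcl14 varies least, between -0.17 and 0.18.

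The genes with the pattern closest to a member were found for the 4 members with a mean log2 level of at least 5, among 10515 protein-coding genes of at least that level. Likeness was the root mean square difference of the log2 deviations over the 6 libraries. For Cxcl2 these were Ccrl2, an atypical chemoattractant receptor (0.23), and Neil1, a DNA repair glycosylase (0.24), where the median gene stood at 0.50. For Cxcl12 the collagen-binding integrin Itga11 was among them (0.07, median 0.32). For Cxcl14 they were the ribosome biogenesis factor Eif6 (0.02) and the purine synthesis enzyme Adsl (0.03, median 0.18). For Cxcl16 they were the sorting receptor Sorl1 (0.02) and Csf3r, the receptor for granulocyte colony-stimulating factor (0.04, median 0.28). None of these 7 named genes passed in limma (adjusted p between 0.0960 and 0.825).

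Of the 6 other CXC ligands in the list, 2 were tested and 0 passed in limma (0 at an unadjusted p under 0.05). Pf4, platelet factor 4, stood at 12.85, 13.04 and 13.07 in untreated and 12.69, 12.86 and 12.90 in RvD1 libraries (log2), with a difference of -0.17 (-0.36 to 0.01; limma adjusted p = 0.280) that was -0.10 after the length and GC correction. Ppbp, the precursor of another platelet chemokine, had a difference of -0.06 (-0.55 to 0.43) and turned positive without RvD1 replicate 1 (0.20). Cxcl13, Cxcl15 and Cxcl17 were listed at 0 in all 6 libraries. Cxcl11, annotated as a polymorphic pseudogene, was listed above 0 only in untreated replicate 3 (0.50).

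Of the 8 receptors, 5 were tested and 0 passed in limma (0 at an unadjusted p under 0.05). Cxcr4 stood at 9.47, 10.17 and 10.18 in untreated and 9.87, 10.53 and 10.58 in RvD1 libraries (log2), with a difference of 0.38 (-0.14 to 0.91; limma adjusted p = 0.397). Replicate 1 was the lowest of both groups, and the difference was 0.15 without untreated replicate 1 and 0.61 without RvD1 replicate 1. Cxcr3 had the most negative difference of the 5, -0.59 (-1.51 to 0.33; limma adjusted p = 0.462), which ran from -1.03 without untreated replicate 1 to -0.22 without untreated replicate 3. Cxcr2, the receptor of the neutrophil attractants and itself a neutrophil marker, was lowest in untreated replicate 1 (3.47) and highest in RvD1 replicate 3 (5.61). Cxcr1 and Ackr1 were listed at 0 throughout.

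Among 12 proteases and binding proteins that act on CXC chemokines, 0 passed in limma, with unadjusted p under 0.05 for 4 higher and 0 lower genes (10.3% and 9.65% over all tested genes). Adam17, a sheddase of membrane proteins, had a difference of 0.23 (0.07 to 0.40; limma adjusted p = 0.135) and all RvD1 libraries above all untreated ones, and one of 0.13 after the length and GC correction. Adam10, the main sheddase of Cxcl16, had one of 0.17 (SE 0.07; limma adjusted p = 0.261). Dpp4, a dipeptidyl peptidase that trims Cxcl10 and Cxcl12, stood at 1.20, 1.87 and 1.58 (log2, about 3 reads each) with RvD1. It was listed at 0 without RvD1 in all 3 libraries, so its fold is not given (limma adjusted p = 0.0988).

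In the list of 14 NF-kB subunits and regulators, 1 fell, 0 rose and 13 did not pass in limma, with a median difference of 0.08. Over all tested genes 0.556% fell and 0.561% rose. In this list 2 genes with a positive and 2 with a negative difference had an unadjusted p under 0.05 in limma (10.3% and 9.65% over all tested genes). Nfkbib, which encodes the inhibitor IkB-beta, stood at 8.45, 8.54 and 8.52 in untreated and 8.03, 7.86 and 8.16 in RvD1 libraries (log2). It fell by 0.49 (SE 0.09; limma adjusted p = 0.0478), with no overlap between the groups. The call ended in each fit without 1 library (limma adjusted p from 0.0547 to 0.177), and after the correction for length and GC content the value was -0.32 (limma adjusted p = 0.143). It also ended with 8 added to the antilogs, without the filter on low values and with a constant variance prior (limma adjusted p = 0.0541, 0.0700 and 0.194). Rela, Nfkb1 and Nfkbia, which encode 2 main subunits and the inhibitor IkB-alpha, had differences of -0.10, -0.07 and 0.04. With an unadjusted p under 0.05 in limma, Rel and Tnfaip3 had positive differences of 0.43 and 0.24 (limma adjusted p = 0.133 and 0.0710). Bcl3, the other gene with a negative difference at that threshold, had -0.41 (limma adjusted p = 0.211).

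In the interferon list of 15 genes, 14 were tested, 0 passed in limma, and 4 had an unadjusted p under 0.05 with a positive difference (10.3% over all tested genes). The kinases Jak2 and Jak1, which pass on interferon signals, had differences of 0.25 (0.10 to 0.40; limma adjusted p = 0.0918) and 0.16 (0.04 to 0.27; limma adjusted p = 0.139), and 0.12 and 0.08 after the length and GC correction. Ifnb1, the gene of interferon beta, was listed at 0 throughout.

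Of 10 regulators of cytokine mRNA stability, 0 passed in limma, and an unadjusted p under 0.05 was found for 2 with a positive and 2 with a negative difference (10.3% and 9.65% over all tested genes). Khsrp and Zfp36l2, RNA-binding proteins that promote mRNA decay, had differences of -0.19 (-0.31 to -0.07; limma adjusted p = 0.102) and -0.22 (-0.37 to -0.07; limma adjusted p = 0.126), and -0.07 and -0.13 after the length and GC correction. Zfp36, which encodes the decay factor tristetraprolin, had one of -0.04.

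**Figure D4:**
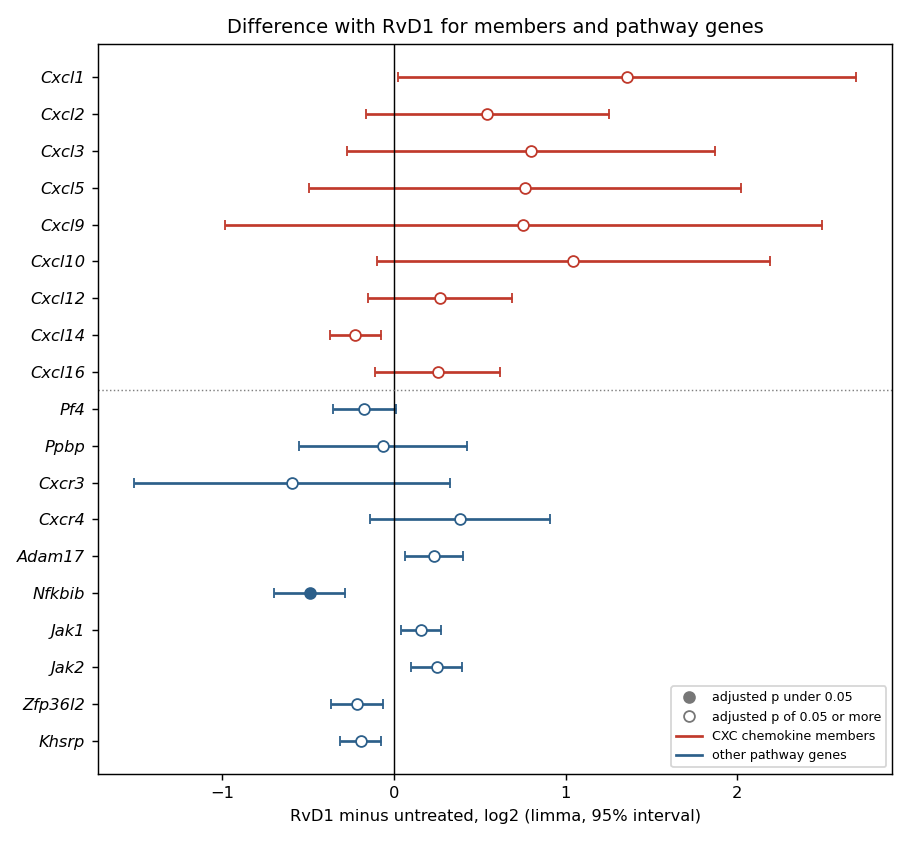
The difference between RvD1 and untreated libraries (log2, horizontal axis, with 95% limma intervals) is plotted for the 9 members (red) and for the named pathway genes (blue); filled symbols passed the adjusted test. Nfkbib (-0.49) is the single filled symbol, and Dpp4, listed at 0 in all untreated libraries, is not drawn.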

How the data were processed

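The values are those the authors deposited, described in the file header only as normalized. Decimal commas were replaced and the numbers read as log2 normalized reads, because they ran from 0 to 17.4 with antilog totals of 12.4 to 12.8 M in each library. A listed 0 is the log2 of 1 normalized read or fewer, so differences near it are understated. The submitters' processing notes name TopHat2 2.0.7 and mm10. For the counter, the annotation release and the normalization method, the tool is not given in the sources used here. Input was 100 to 400 ng of total RNA in a TruSeq kit, per the labels' protocols. The worth of 1 read was taken as the gap between the 2 most frequent low antilogs of a library. Only 40.6% to 53.1% of low values were whole to within 0.02 reads, so no count test was run, and read numbers are estimates.

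Groups and replicate numbers came from the sample titles. Values were tested as deposited with limma 3.58.1 in R 4.3.3 (treatment alone, mean-dependent variance prior, two-sided) on the 18899 genes above 0 in at least 3 libraries. Separate animals or cultures are not named for the replicates in the labels, and the p-values reflect only how these samples spread, which may be technical. With 3 against 3 an exact permutation test cannot go below 0.1, so none was used. The members, gene lists and promoter motifs were chosen with earlier results of these data known. Named were the 9 members, in each pathway list the genes past the test or else the 2 with the smallest p, and the 2 genes most like each member of mean log2 of at least 5; other list genes with values (Adam10, Cxcr2, Rela, Nfkb1, Nfkbia, Zfp36, and genes listed at 0) were chosen for their known roles after values were seen. One gene that this rule names is not reported here. Alternatives covered filter, scaling, pseudocount, variance prior, array weights, a replicate block, single libraries left out, and a spline correction for transcript length and GC content (4 knots each, GENCODE M21). The test was checked on simulated data with changed genes of mean log2 of at least 5. The simulated libraries were independent of each other, and the check does not cover members below that level. Software was Python 3.11.15 with pandas 2.3.3 and matplotlib 3.10.9.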

Additional observations from a re-analysis of the deposited data

How the results depend on the processing

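With 1 library left out, 0 of the 9 members passed in any of the 6 fits, and the number of all genes called ran from 0 (without replicate 2 or 3 of RvD1, or replicate 3 of the untreated group) to 451 (without RvD1 replicate 1), with 5 and 3 without untreated replicates 1 and 2 and 211 with all libraries. At an unadjusted p under 0.05 in limma these fits held 2623 to 4123 genes. With 1 library left out, the count of members whose groups did not overlap ran from 2 to 6 (6 without untreated replicate 3), where 31.6% to 39.7% of all tested genes did not overlap. It was 1 after quantile normalization (2 as deposited), for which no share over all tested genes is given. Of all genes, 566 were called with array weights, 1 with a constant variance prior, 12 without the filter on low values and 36 after the length and GC correction. Whether the same replicate numbers in both groups pair the samples is not given in the labels. For numbers 1, 2 and 3 the correlation of deviations between the groups was 0.30, -0.08 and 0.42. Between untreated replicate 1 and RvD1 replicate 3 it was -0.39, and between untreated replicate 3 and RvD1 replicate 1 it was -0.38. Untreated replicate 2 correlated best with RvD1 replicate 1 (0.09). Deviations from means of 3 libraries cannot settle whether the samples are paired. With the replicate block, 1896 of the 18899 tested genes and 3 of the 9 members were called. Cxcl12 and Cxcl16 were higher and Cxcl14 lower (limma adjusted p = 0.0223, 0.0383 and 0.0357). Cxcr4 and Adam17 (adjusted p = 0.00488 and 0.0147 in limma) and Jak1 and Jak2 were then also called higher, and Pf4, Zfp36l2 and Khsrp lower. Adding that correction to the replicate block left 758 genes and 2 members (Cxcl12 and Cxcl16) called, with Cxcr4 and Nfkbib among the named pathway genes. The cause of these shifts was not tested. All 9 members kept the sign of their difference under every setting that tested them (15 or 16 each). In some of these the sign could not change, since the filters, the variance prior and the replicate block alone leave the difference as it was. The other settings reuse the same libraries. Ppbp turned positive with array weights (0.064) and without untreated replicate 3 (0.0067), and ran from -0.25 to 0.20 with 1 library left out, the highest without RvD1 replicate 1. Cxcl9, Cxcl5 and Cxcl1 had under 20 estimated reads in each library; the part of depth in their wide intervals was not tested.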
